A study of Mus musculus with 2 samples.

Results

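The genes described here are 10 inhibitory receptor and exhaustion genes of CD8+ T cells, Pdcd1, Tigit, Lag3, Havcr2, Ctla4, Cd160, Btla, Cd244a, Tox and Entpd1, of 19505 genes with a named probe set. They were chosen by name as genes known to restrain T cells or to mark exhausted ones, and the platform annotation gave each of them 1 probe set. RNA came from endogenous (Thy1.1-negative) CD8+ T cells sorted from the inguinal lymph nodes and spleen of 6- to 8-week-old C57BL/6 females on day 25 after inoculation with 200000 B16F10 melanoma cells. Mice of the CTXpre/CD4post group received 300 mg/kg cyclophosphamide on day 3, 2000000 Thy1.1 Pmel-1 T cells on day 5 (TCR-transgenic CD8+ cells that recognise a melanocyte antigen), IL-2 at 10000 IU daily for 3 days, and 200 µg of the CD4-depleting antibody GK1.5 on days 10, 17 and 24. Mice of the CTXpre group received the same tumor, cyclophosphamide, Pmel-1 cells and IL-2, without the antibody. The sorted cells of 5 mice per group were pooled before RNA was extracted, and each pool was hybridised to 1 Clariom S array, so n = 1 in each group, no difference has a replicate check and no test was possible. The number of arrays limits the precision.

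Inhibitory receptors are switched on when a T cell meets its antigen, and they dampen signalling from the T-cell receptor. After short stimulation they are transient signs of activation. When antigen persists, several of them stay on together with the nuclear factor TOX, a state called exhaustion. Not all of the 10 are restricted to T cells. Pdcd1 (PD-1), Tigit, Lag3, Ctla4, Cd160 and Tox are carried mainly by T cells and natural killer (NK) cells, although LAG-3 is also known on plasmacytoid dendritic cells. Havcr2 (TIM-3) is abundant on conventional dendritic cells, Btla on B cells and dendritic cells, Entpd1 (CD39) on B cells and myeloid cells, and Cd244a (2B4) on NK cells and some myeloid cells. The first 6 are called T-cell members here, and the other 4 shared members.

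Levels are log2 values after robust multi-array averaging (RMA), and differences are given as CTXpre/CD4post minus CTXpre, so that 0.585 is 1.5-fold. A level counted as above background if it exceeded the 95th percentile of 1450 olfactory, vomeronasal and taste receptor probe sets on the same array, 4.36 for CTXpre/CD4post and 4.35 for CTXpre. All 10 genes lay above this bound on both arrays, so none entered through 1 array alone. The 99th percentile was 5.13 for CTXpre/CD4post and 5.26 for CTXpre. Against that stricter bound Tigit, with 5.24 in CTXpre, lay above background in CTXpre/CD4post only. The CD8 genes had levels of 11.72 (Cd8a) and 11.80 (Cd8b1) in CTXpre/CD4post, against 11.47 (Cd8a) and 11.70 (Cd8b1) in CTXpre, and Cd3e had 11.62 in each group. Of the 12 genes of a T-cell core list, 10 had a probe set, all above background and all within 1.5-fold, with a median difference of 0.11 and summed linear levels of 17100 in CTXpre/CD4post and 15600 in CTXpre. The core genes with the largest differences were Thy1 (0.38) and Cd8a (0.25).

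Of the T-cell members, 5 were higher in CTXpre/CD4post and Tox was close to 0, and the shared members were lower or close to 0. All 6 T-cell members had a difference above 0, that of Tox being 0.02, as had 51.6% of all probe sets. Of the 10 genes, 3 were at least 1.5-fold higher (Tigit, Pdcd1 and Cd160) and 2 at least 1.5-fold lower (Havcr2 and Btla). Over the 14337 probe sets that exceeded the bound on either array, the share past 1.5-fold was 3.03% on the higher side and 3.35% on the lower side. At the 2-fold size used in the study's text, 1 gene (Tigit) was higher and 0 were lower, against 0.53% and 0.579% of all probe sets. The 10 genes had a median difference of 0.26, the 6 T-cell members one of 0.69 and the 4 shared members one of -0.46, against 0.01 over all probe sets above background. As a yardstick of size, the central 95% of differences ran from -0.55 to 0.51 among 8038 probe sets whose mean level lay between the lowest and highest mean level of these genes. Havcr2 and Btla lay below that range, Tigit, Pdcd1, Cd160 and Lag3 above it, and Ctla4 at its upper edge.

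**Figure D1:**
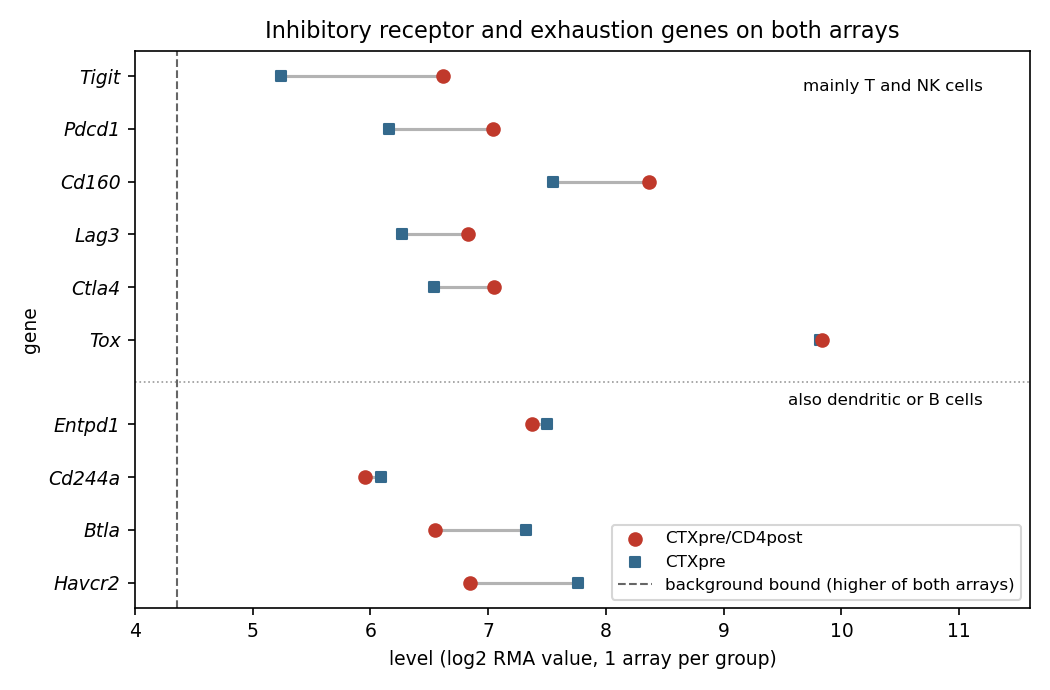
Level of each gene on both arrays (log2 RMA value), CTXpre/CD4post as red circles and CTXpre as blue squares, with the background bound dashed. The 5 genes from Tigit to Ctla4 have the circle to the right of the square, Tox has both at about the same place, and the 4 genes below the dotted line have the circle to the left.

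Tigit encodes a receptor of the immunoglobulin superfamily that competes for the poliovirus receptor CD155. Its level was 6.62 in CTXpre/CD4post and 5.24 in CTXpre, 2.59-fold higher, and the difference of 1.37 ranked 30th from the highest among the 14337 probe sets. No other gene of the 10 differed as much. Adding 32 to the linear values, which shrinks the differences of dim probe sets, left 0.90.

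Pdcd1 encodes PD-1, the receptor that recruits phosphatases to the T-cell receptor and CD28 and is the target of checkpoint antibodies. It had a level of 7.04 in CTXpre/CD4post and 6.15 in CTXpre, 1.85-fold higher, ranked 118th from the highest. Cd160 encodes a receptor held in the membrane by a lipid anchor, found on NK cells and on memory and exhausted CD8+ cells. It had a level of 8.37 in CTXpre/CD4post and 7.55 in CTXpre, 1.77-fold higher, ranked 170th. Tigit, Pdcd1 and Cd160 thus lay past 1.5-fold, and they stayed past it under all 7 alternative ways of scaling or summarising the arrays. Among these, averaging probe sets and holding levels at the bound could not change their values.

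Lag3 and Ctla4 were higher by amounts just under 1.5-fold. Lag3, a relative of CD4 that binds MHC class II, had a level of 6.83 in CTXpre/CD4post and 6.27 in CTXpre, 1.47-fold higher and ranked 494th. Ctla4, which takes the B7 ligands away from CD28, had a level of 7.05 in CTXpre/CD4post and 6.54 in CTXpre, 1.42-fold higher and ranked 624th. At a smaller size, a difference of 0.32 on the log2 scale, 5 of the 10 genes were higher and 2 lower, against 11.3% and 11.4% of all probe sets.

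Tox encodes the HMG-box factor that establishes and maintains the exhausted state in chronic infection and tumors. It had levels of 9.84 in CTXpre/CD4post and 9.82 in CTXpre. The difference of 0.02 lay in the middle of all probe sets (ranked 6980th), and it turned to -0.10 relative to the T-cell core list.

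Among the shared members, Havcr2 and Btla were lower. The level of Havcr2 (TIM-3) was 6.85 in CTXpre/CD4post and 7.76 in CTXpre, 1.89-fold lower and ranked 119th from the lowest. Btla, whose product binds the TNF-receptor family member HVEM, had a level of 6.55 in CTXpre/CD4post and 7.32 in CTXpre, 1.71-fold lower and ranked 224th from the lowest. Cd244a and Entpd1 were close to 0. Cd244a, the SLAM-family receptor 2B4, had levels of 5.95 in CTXpre/CD4post and 6.09 in CTXpre, a difference of -0.14. Entpd1, the ectoenzyme CD39 that degrades extracellular ATP, had levels of 7.37 in CTXpre/CD4post and 7.50 in CTXpre, a difference of -0.12. All 4 had a difference below 0, as had 48.3% of all probe sets above background. In RNA of a sorted bulk population, fewer cells of a type and less RNA per cell cannot be told apart.

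**Figure D2:**
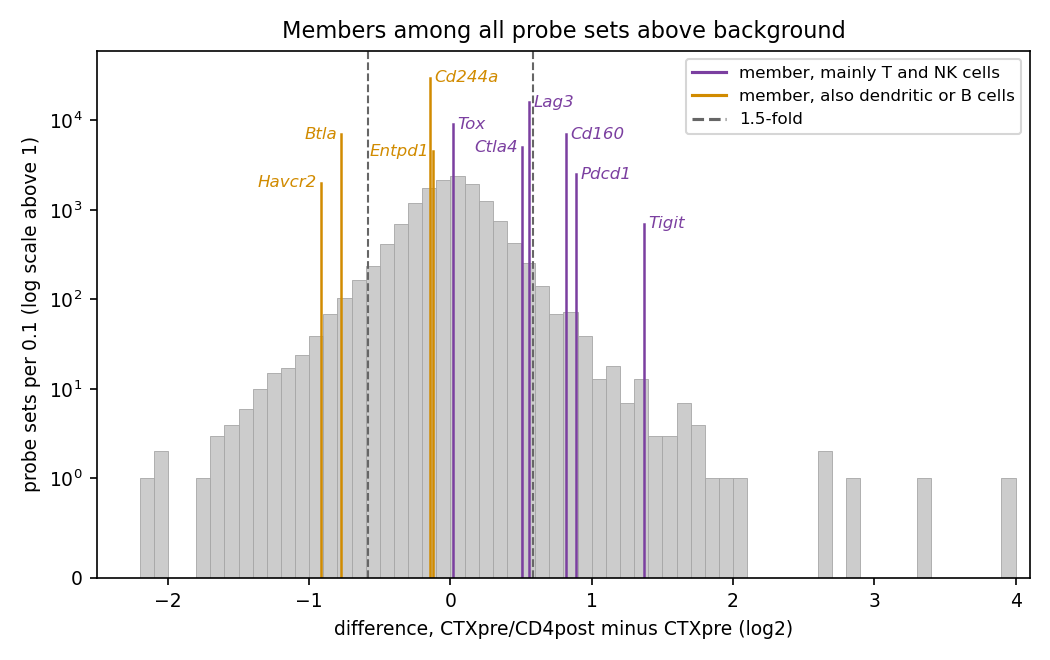
Histogram of the differences (CTXpre/CD4post minus CTXpre, log2) of the 14337 probe sets that exceeded the bound on either array, with a count axis that is logarithmic above 1. Vertical lines mark the T-cell members (purple) and the shared members (orange), their height is set for legibility only, and dashed lines mark 1.5-fold.

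Markers of the cells that also carry Havcr2 and Btla were lower in CTXpre/CD4post too. All 10 conventional dendritic-cell markers, each above background on at least 1 array, had a difference below 0, 5 of them past 1.5-fold, and the median was -0.54. For this list and those that follow, the shares over all probe sets above background were 48.3% below 0 and 51.6% above 0. At 1.5-fold, 3.35% were lower and 3.03% higher. Their summed linear level was 673 in CTXpre/CD4post and 1070 in CTXpre. Fscn1, an actin bundler of mature dendritic cells, had levels of 5.71 in CTXpre/CD4post and 7.11 in CTXpre, and the cytokine receptor gene Flt3 5.94 in CTXpre/CD4post and 6.85 in CTXpre. All 7 measured plasmacytoid dendritic-cell markers were below 0, 5 of them past 1.5-fold, around a median of -0.75 and with summed levels of 864 in CTXpre/CD4post and 1480 in CTXpre. The leading ones were Klk1 (-1.46) and the surface lectin Siglech (-1.32). The median over 9 measured MHC class II genes was -0.75, with 7 of them past 1.5-fold, and their summed level was 5690 in CTXpre/CD4post and 9470 in CTXpre, with H2-Eb1 (-0.93) and H2-DMb1 (-0.86) ahead.

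B-cell markers differed less. Of 12 measured, 3 were at least 1.5-fold lower, among them Fcrla (-0.95) and the adaptor Blnk (-0.61), and 10 were below 0, with a median of -0.30 and summed levels of 1170 in CTXpre/CD4post and 1440 in CTXpre. The B-cell receptor component Cd79a had levels of 8.37 in CTXpre/CD4post and 8.72 in CTXpre. No dendritic-cell, MHC class II or B-cell marker that was measured lay below background on both arrays. Their part in the levels of Havcr2, Btla, Entpd1, Cd244a and Lag3 was not tested. Monocyte, macrophage and neutrophil markers had a median of -0.54 over 9 genes, 4 of them lower by at least 1.5-fold, led by Mpeg1 (-1.12) and S100a8 (-0.77), with summed levels of 633 in CTXpre/CD4post and 1030 in CTXpre.

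NK cells carry Cd160, Tigit and Cd244a as well, and their markers lay on both sides of 0. Of the 5 that exceeded the bound, 3 lay past 1.5-fold on the lower side and 2 above 0. The median was -0.71, with summed levels of 947 in CTXpre/CD4post and 907 in CTXpre over the 6 measured. Cd7, which T cells also express, supplied 697 of that sum in CTXpre/CD4post and 500 in CTXpre, a difference of 0.48. Without Cd7, left out after the values were seen, the other 5 summed to 249 in CTXpre/CD4post and 408 in CTXpre. Of those sums, Tyrobp supplied 63.2 in CTXpre/CD4post and 129 in CTXpre, and Fcer1g 117 in CTXpre/CD4post and 192 in CTXpre. Klre1 differed by 0.04. Klrb1c (NK1.1) was above background in CTXpre only and at least 1.92-fold lower in CTXpre/CD4post, and the adaptor Tyrobp differed by -1.03. Ncr1 was above background on neither array, with levels of 3.45 in CTXpre/CD4post and 3.38 in CTXpre. CD4 and regulatory T cells are rich in Ctla4 and Tigit. Their 6 markers above background went both ways, 1 higher and 2 lower at 1.5-fold, with a median of 0.04. Foxp3 was listed but had no probe set named here. Summed levels were 765 in CTXpre/CD4post and 795 in CTXpre over the 7 measured. Without Izumo1r, the largest contributor, left out after the values were seen, they were 302 in CTXpre/CD4post and 406 in CTXpre. Cd4 had levels of 5.98 in CTXpre/CD4post and 7.55 in CTXpre. Cd40lg had 5.82 in CTXpre/CD4post and 4.02 in CTXpre, the second of which is not above background, so it was at least 2.78-fold higher. The 3 measured markers of gamma-delta T cells had a median of -0.47, with summed levels of 155 in CTXpre/CD4post and 196 in CTXpre. Blk (-0.61) and Sox13 (-0.47) had the largest differences, and Cd163l1 differed by -0.02. Immediate early and heat shock genes, which respond to antigen signals and to cell handling, had a median of -0.51 over 10 genes, 4 of them lower by at least 1.5-fold, with Atf3 (-1.30) and Fos (-0.99) ahead, and summed levels of 3860 in CTXpre/CD4post and 5420 in CTXpre. The part of NK, CD4+ and gamma-delta cells and of handling in the members' levels was not tested.

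**Figure D3:**
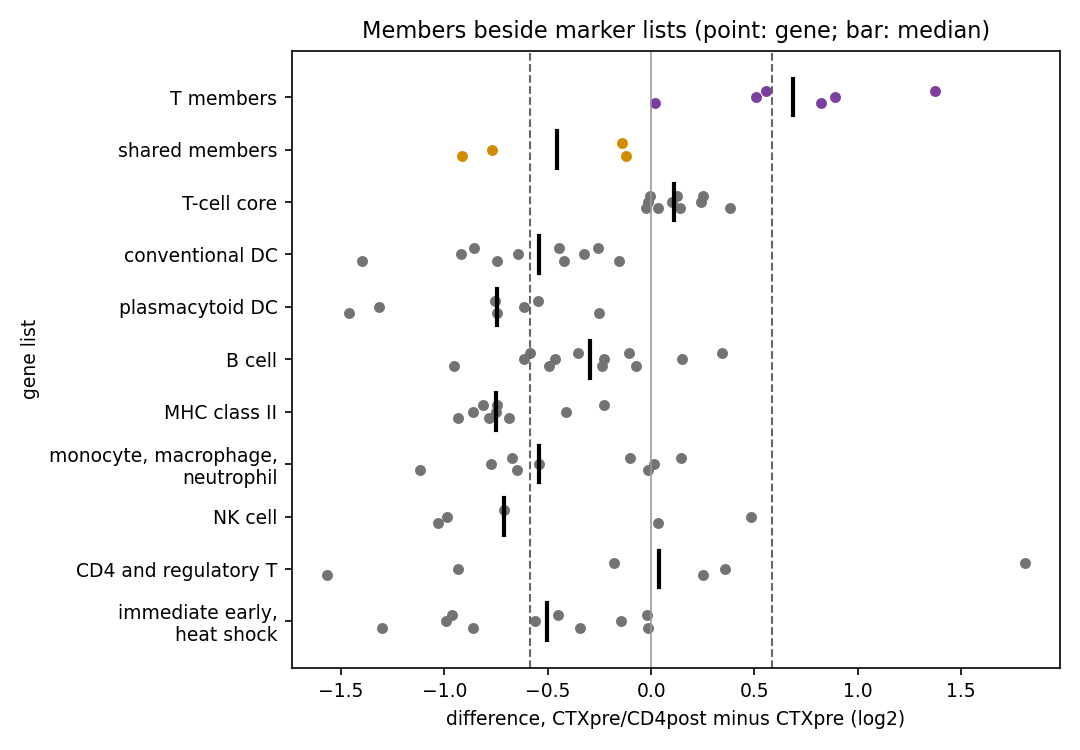
Differences (CTXpre/CD4post minus CTXpre, log2) of the T-cell members and shared members above those of marker lists, 1 point per gene above background and a bar at each median. The medians are 0.69 for the T-cell members, -0.46 for the shared members, 0.11 for the T-cell core and between -0.75 and -0.30 for the dendritic-cell, B-cell, MHC class II and myeloid lists, and dashed lines mark 1.5-fold.

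Each receptor was next read beside its ligands and its partners. Of 14 listed ligands, 11 were above background, 1 was at least 1.5-fold higher (Lgals3, 0.67) and 1 at least 1.5-fold lower (Ceacam1, -0.75), with a median of 0.07. A list of activating partners, Cd28, Cd226, Cd2, Tnfsf14 and Icos, was all above 0, with a median of 0.40 over 5 genes. Only Icos was at least 1.5-fold higher. Cd28, Cd226 and Cd2 are receptors that share a ligand with a member. ICOS binds a ligand of its own, and Tnfsf14 encodes a ligand of HVEM and not a receptor. Of 12 phosphatases, adaptors and brakes, 11 were above background and 0 reached 1.5-fold in either direction, with a median of 0.00.

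For PD-1, the ligand genes Cd274 (PD-L1) and Pdcd1lg2 (PD-L2) differed by 0.11 and -0.13 while Pdcd1 itself differed by 0.89. The phosphatase genes Ptpn11 (SHP-2) and Ptpn6 (SHP-1), whose products bind the tail of PD-1, differed by 0.16 and 0.22. For TIGIT, the ligand gene Pvr (CD155) had levels of 6.28 in CTXpre/CD4post and 6.20 in CTXpre, and Nectin2 and Nectin3 were above background on neither array. The activating receptor Cd226 (DNAM-1), which competes with TIGIT for CD155, had levels of 9.24 in CTXpre/CD4post and 8.73 in CTXpre, a difference of 0.51. Cd96, the remaining receptor of CD155 on T cells, differed by 0.07. The inositol phosphatase gene Inpp5d (SHIP-1), which acts downstream of TIGIT, differed by -0.18.

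For CTLA-4, the ligand genes Cd80 and Cd86 had levels of 5.98 and 6.72 in CTXpre/CD4post and of 5.98 and 6.65 in CTXpre. Ctla4 lies between Cd28 and Icos in the mouse genome, and these are the receptors it is most related to. All 3 were higher in CTXpre/CD4post. Cd28, the main costimulatory receptor, had levels of 9.05 in CTXpre/CD4post and 8.65 in CTXpre, a difference of 0.40. Icos, an inducible costimulatory receptor, had 9.95 in CTXpre/CD4post and 8.78 in CTXpre, 2.25-fold higher. The difference of Ctla4, 0.51, stood between those of its neighbours.

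LAG-3 binds MHC class II, which was lower in CTXpre/CD4post as given above. Of its other ligands, Lgals3 (galectin-3) had levels of 8.02 in CTXpre/CD4post and 7.35 in CTXpre, and Fgl1 was above background on neither array. Lag3 and Cd4 are adjacent genes on chromosome 6 and share an ancestor. They differed in opposite directions, with 0.56 for Lag3 and -1.57 for Cd4. The antibody given to CTXpre/CD4post mice depletes CD4+ cells, and its part in the Cd4 level was not tested.

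CD160 and BTLA bind the same ligand, HVEM, and went opposite ways, with 0.82 for Cd160 and -0.77 for Btla. The HVEM gene Tnfrsf14 had levels of 8.20 in CTXpre/CD4post and 8.32 in CTXpre, and Tnfsf14 (LIGHT), an activating ligand of HVEM, 6.50 in CTXpre/CD4post and 6.24 in CTXpre. For TIM-3, the ligand gene Lgals9 (galectin-9) differed by -0.14 and Hmgb1 by 0.12. Ceacam1, which is both a ligand and a partner of TIM-3 and is also found on B cells and myeloid cells, had levels of 5.45 in CTXpre/CD4post and 6.20 in CTXpre, 1.69-fold lower, next to 1.89-fold for Havcr2.

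For 2B4, the ligand gene Cd48 had levels of 8.73 in CTXpre/CD4post and 8.23 in CTXpre, a difference of 0.50, and Cd2, which also binds CD48 in the mouse, one of 0.25. The adaptor SAP decides whether 2B4 activates or inhibits, and its gene Sh2d1a had levels of 7.63 in CTXpre/CD4post and 7.15 in CTXpre, a difference of 0.48 that was the largest in the signalling list. The related adaptor gene Sh2d1b1 was above background on neither array, and Sh2d1b2 lay just above the bound in CTXpre only. Fyn, the kinase that SAP recruits, differed by 0.00. CD39 acts with CD73, encoded by Nt5e, to turn ATP into adenosine. Entpd1, Nt5e (-0.15) and the deaminase gene Ada (-0.15) all lay close to 0. The 5 measured genes of this list had a median of -0.15 and 0 reached 1.5-fold, the largest being the ATP receptor gene P2rx7 (-0.45) and Dpp4 (-0.42), the membrane anchor of adenosine deaminase in human cells.

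**Figure D4:**
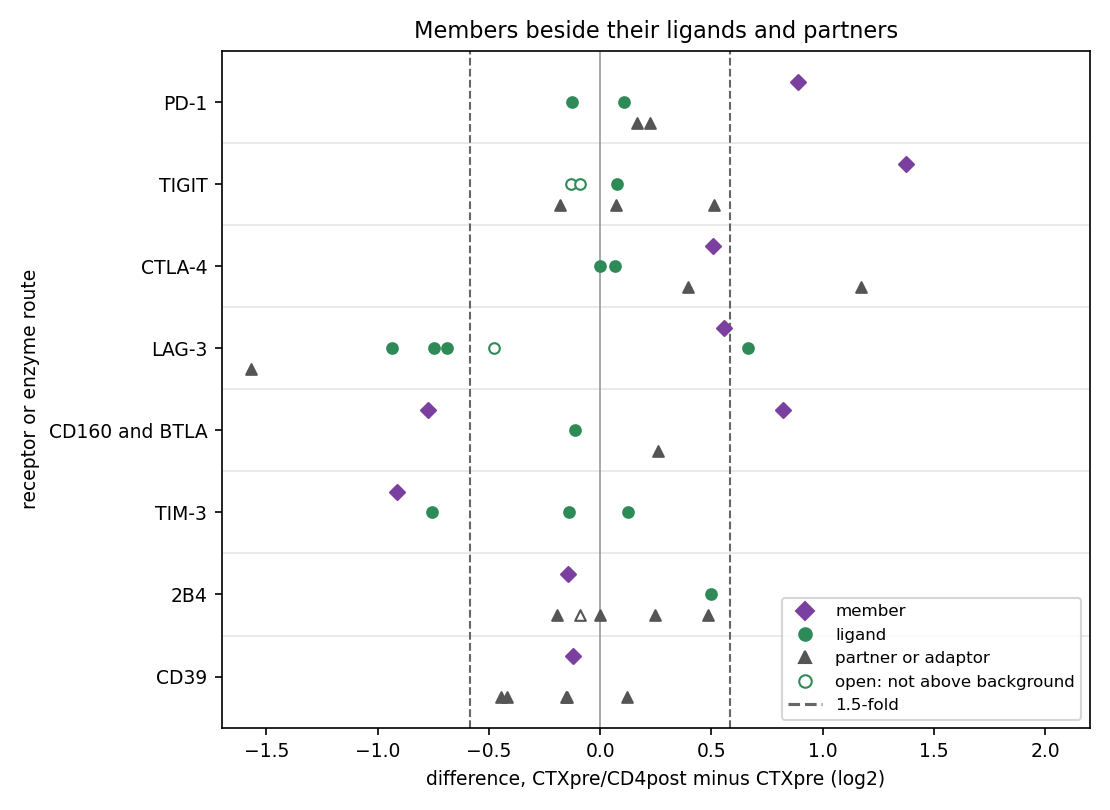
Differences (CTXpre/CD4post minus CTXpre, log2) of the receptors and of CD39 (diamonds), their ligands (circles) and partners or adaptors (triangles), 1 row per receptor route, with open symbols for genes above background on neither array and dashed lines at 1.5-fold. The diamonds of PD-1 and TIGIT lie right of all their ligands and partners, Cd160 and Btla lie on opposite sides of the dashed lines, and the MHC class II ligands of LAG-3 and Ceacam1 of the TIM-3 route lie left of them.

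Transcription factors that act with TOX in exhausted cells lay mostly a little above 0. Of 15, all above background on at least 1 array, 12 had a difference above 0, against 51.6% of all probe sets above background. Past 1.5-fold, 1 was higher and 0 were lower, against 3.03% and 3.35% of all probe sets. The median was 0.22, or 0.11 relative to the T-cell core list. Maf, which drives Il10 and inhibitory receptor genes in T cells, had levels of 6.18 in CTXpre/CD4post and 5.07 in CTXpre, 2.16-fold higher. Bhlhe40 differed by 0.45. The calcium-responsive Nfatc1 and the TOX-inducing partners Nr4a1, Nr4a2 and Nr4a3 differed by 0.20, 0.22, -0.11 and 0.24. Tbx21 (T-bet) had levels of 7.03 in CTXpre/CD4post and 6.63 in CTXpre, while its relative Eomes, which is high in terminally exhausted cells, had 8.79 in CTXpre/CD4post and 8.80 in CTXpre. Tox2, the closest relative of Tox in exhausted cells, differed by 0.07.

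Factors of precursor and memory cells leaned the other way. Of 9 listed, 8 were measured, and Tcf7 (TCF-1) had no probe set named here. Of the 8 measured, 7 were below 0, against 48.3% of all probe sets above background. Past 1.5-fold, 1 was lower and 0 were higher, against 3.35% and 3.03% of all probe sets. The median was -0.29. Bcl6, a repressor that sustains precursor cells, had levels of 6.07 in CTXpre/CD4post and 6.78 in CTXpre, 1.64-fold lower, and it is also high in germinal-centre B cells. Id3, the only one above 0, differed by 0.39. Surface and secreted genes of exhausted or chronically stimulated cells had a median of 0.33 over 13 above background, with 4 past 1.5-fold on the higher side and 0 on the lower side. Rgs16, a brake on chemokine receptor signalling, had levels of 6.39 in CTXpre/CD4post and 5.33 in CTXpre, 2.09-fold higher. The chemokine receptor gene Cxcr6 had 8.13 in CTXpre/CD4post and 7.22 in CTXpre, 1.88-fold higher. The fractalkine receptor gene Cx3cr1 differed by 0.20, Cxcr5, a receptor of precursor cells, by -0.12, and Il10 was above background on neither array.

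Other inhibitory receptors of T cells went both ways. Of 12 listed, 11 were measured, around a median of 0.00. Past 1.5-fold, 1 was higher and 0 were lower, against 3.03% and 3.35% of all probe sets above background. Klrc1, which encodes NKG2A, differed by 0.85 (1.80-fold higher). Cd101, a marker of terminally exhausted CD8+ cells, differed by 0.50 and the T-cell receptor modulator Cd5 by 0.18. Cd200r1, above background in CTXpre/CD4post only, was at least 1.15-fold higher. Lair1 (-0.51), Pecam1 (-0.41), Cd300a (-0.39) and Lilrb4a (-0.13) were on the other side of 0. Klrg1, a marker of terminal effector cells, differed by -0.12, and Vsir (VISTA) by 0.00. Some of these receptors, on both sides of 0, are also carried by myeloid cells. Myeloid markers had a median of -0.54 in the same arrays, and their part in these values was not tested.

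Of the nearest protein-coding neighbours of the 10 genes in the GRCm38.p6 gene table, 16 were above background on at least 1 array. Past 1.5-fold, 2 of them were higher, Icos (1.17) and Itln1 beside Cd244a (0.63), and 1 was lower, Cd4 (-1.57). The shares over all probe sets above background were 3.03% higher and 3.35% lower. The neighbours of Pdcd1, Neu4 and Fam174a, differed by -0.08 and -0.01, and those of Cd160, Rnf115 and Pdzk1, by -0.05 and 0.15. Drd3, next to Tigit, had levels of 5.17 in CTXpre/CD4post and 4.69 in CTXpre, a difference of 0.47. Of the neighbours of Btla, Atg3 differed by -0.08 and Cd200, which encodes the ligand of a further inhibitory receptor, by 0.08. Med7, next to Havcr2, differed by -0.51.

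Promoter sequences are shown for the genes past 1.5-fold, so that the region before the start of those that were higher can be set beside that of those that were lower. The RefSeq promoter table (GRCm38.p6) held 8 of the 10 genes, all but Lag3 and Tox, in 10 entries, since Cd160 and Entpd1 had more than 1 start. The 250 bases before the start are given 5′ to 3′ on the gene's strand, and for Cd160 those before its most upstream start. Capitals mark the core letters of NFAT, the calcium-driven factor of antigen signalling (GGAAA, read as TTTCC on the other strand), and the letters of PU.1, a factor of myeloid and B cells (GAGGAAG, read as CTTCCTC). The first 3 genes were higher in CTXpre/CD4post and the other two lower.
Tigit (chr16:43664185-43664434, minus strand): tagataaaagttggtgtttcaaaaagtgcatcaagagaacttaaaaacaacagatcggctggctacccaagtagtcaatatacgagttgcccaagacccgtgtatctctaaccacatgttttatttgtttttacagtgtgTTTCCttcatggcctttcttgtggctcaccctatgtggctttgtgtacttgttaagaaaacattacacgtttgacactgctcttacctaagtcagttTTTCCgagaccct
Pdcd1 (chr1:94052554-94052803, minus strand): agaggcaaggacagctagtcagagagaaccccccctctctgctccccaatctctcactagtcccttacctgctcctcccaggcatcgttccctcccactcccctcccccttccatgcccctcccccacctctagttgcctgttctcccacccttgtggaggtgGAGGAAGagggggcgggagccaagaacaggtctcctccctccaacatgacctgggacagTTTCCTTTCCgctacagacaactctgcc
Cd160 (chr3:96829352-96829601, minus strand): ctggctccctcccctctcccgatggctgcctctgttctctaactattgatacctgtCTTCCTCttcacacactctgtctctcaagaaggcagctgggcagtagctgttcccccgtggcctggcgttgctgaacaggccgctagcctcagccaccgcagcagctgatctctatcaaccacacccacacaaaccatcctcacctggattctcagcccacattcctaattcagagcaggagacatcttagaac
Havcr2 (chr11:46454681-46454930, plus strand): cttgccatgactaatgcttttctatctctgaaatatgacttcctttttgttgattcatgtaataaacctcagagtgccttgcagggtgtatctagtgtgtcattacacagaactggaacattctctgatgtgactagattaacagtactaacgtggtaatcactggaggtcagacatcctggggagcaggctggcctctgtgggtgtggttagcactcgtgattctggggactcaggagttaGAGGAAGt
Btla (chr16:45224087-45224336, plus strand): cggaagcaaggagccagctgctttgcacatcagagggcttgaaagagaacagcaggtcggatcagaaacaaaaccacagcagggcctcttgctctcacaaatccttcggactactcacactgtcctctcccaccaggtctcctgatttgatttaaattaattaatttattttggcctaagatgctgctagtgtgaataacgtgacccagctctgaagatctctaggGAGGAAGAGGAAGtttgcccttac

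The NFAT core stood 2 times before Tigit and 2 times before Pdcd1, and it was in neither the Havcr2 nor the Btla window. It was also in the windows of Ctla4, Cd244a, 1 of the Cd160 starts (not the one printed) and 1 of the Entpd1 starts, and in 55.6% of the 32851 promoter windows of the same length in the table. The PU.1 letters stood 2 times in the Btla window, 1 time in that of Havcr2, and also in those of Pdcd1, Cd160 and Entpd1, against 10.6% of all windows. NFAT and PU.1 matches did not overlap each other in these entries, while the 2 PU.1 matches before Btla share a base. In all, 10 motifs were searched on both strands, and matches of different motifs were allowed to overlap. AP-1 (TGANTCA, in 6.75% of windows) was found before Cd244a and Havcr2, STAT (TTCNNNGAA, 7.02%) and TCF (CTTTGAN, 13.8%) before Cd160, the E-box (CAGNTG, 44.8%) before 5 genes and RUNX (TGNGGT, 40.1%) before 6. A shortened interferon element (GAAANNGAA, 7.13%) was found before Btla and Ctla4, and the NR4A letters (AAGGTCA, 4.08%) and the T-box letters (AGGTGNGA, 4.66%) were in none of the 10 windows. A match describes letters only, and such words occur in many promoters.

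**Figure D5:**
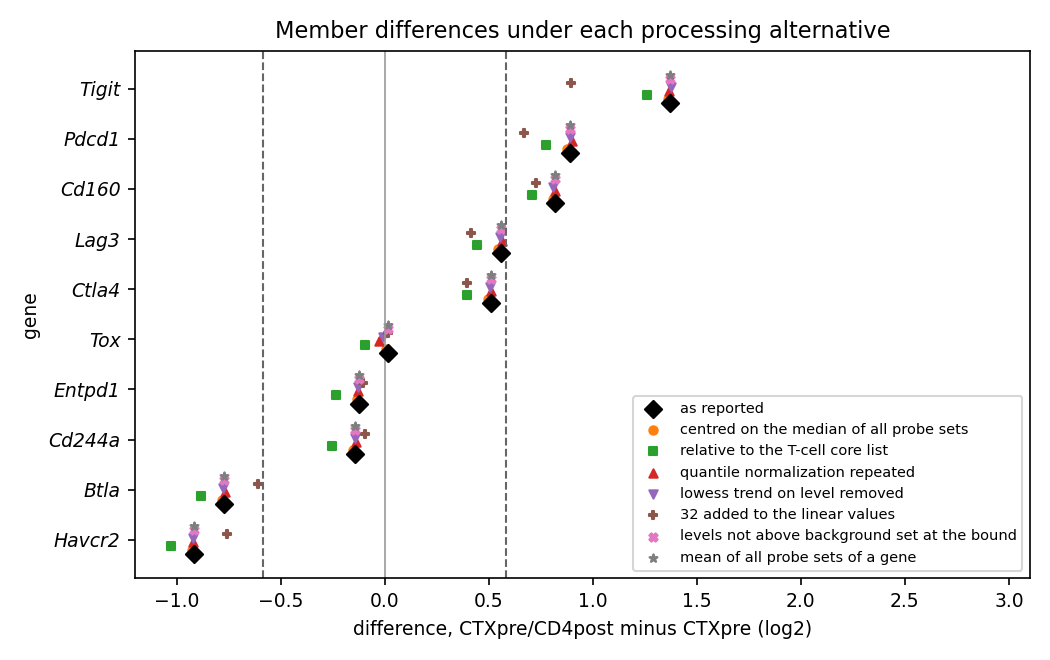
Difference of each of the 10 genes (CTXpre/CD4post minus CTXpre, log2) as reported (black diamonds) and under 7 alternatives for scaling, background and probe sets, with dashed lines at 1.5-fold. Tigit, Pdcd1 and Cd160 stay right of the upper line and Havcr2 and Btla left of the lower one, and Tox is the only gene found on both sides of 0.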

How the data were processed

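RNA of endogenous CD8+ T cells was measured on 2 Affymetrix Clariom S mouse arrays, 1 per group, each with RNA extracted from the pooled cells of 5 mice. The deposited values are log2 levels that the authors made with RMA in Affymetrix Power Tools, named in the study's methods and the submitters' processing notes. RMA corrects background, brings all arrays to 1 distribution by quantiles and joins the probes of each probe set into 1 value, so a global shift of RNA amount cannot be seen. Tool versions and genome build, not given in the sources used here, could not be recorded. Both arrays had medians of 5.15, and 0 columns were left unused. Across probe sets, which are not replicates, Pearson's r between the arrays was 0.988.

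Groups came from the treatment labels. Of 22206 probe sets, 19572 carried 1 symbol and 2634 are unnamed here. Looking up Entrez identifiers in RefSeq's GRCm38.p6 gene table changed 0 symbols. For genes with several probe sets the one with the highest mean of both arrays was used. Genes were described by size, at least 1.5-fold, and no p-value was computed. Where a gene was above background on 1 array only, the ratio was taken against the bound and is a lower limit. The members and lists were chosen with earlier results of these data known, and the split into T-cell and shared members followed textbook knowledge. From each list the 2 genes with the largest difference were to be named, with Cd8a, Cd8b1, Cd3e and Cd4. Partners of each receptor, genomic neighbours, further list genes and gene families were named after their values were seen. List genes with no probe set named here were not analysed. A planned description of protein motifs was not done, and promoter motifs, added later, were read instead. Scripts were tested on simulated arrays. Alternatives were a median-centred scale, one relative to the T-cell core list, repeated quantile normalization, a lowess trend removed (fraction 0.3), 32 added to the linear values, levels held at the background bound, the mean of all probe sets, thresholds of 0.32 (log2) and 2-fold, means for medians, the 99th percentile as bound, no filter, and Lag3 counted as shared. Python 3.11.15, pandas 2.3.3 and statsmodels 0.14.6 were used.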

Additional observations from a re-analysis of the deposited data

How the results depend on the processing

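The 10 genes kept their side of 1.5-fold under all 7 alternatives of scaling, background and probe set, and each kept its direction except Tox, which ran from -0.10 to 0.02. Not all of these could change a member. Each gene has 1 probe set and lies above the bound on both arrays. Averaging probe sets and holding levels at the bound therefore left every value as it was. Centring on the median of all probe sets shifted each by 0.01 only. The value of Tigit moved most, to 0.90 with 32 added to the linear values. With a 2-fold threshold 1 gene was higher and 0 were lower, and with a threshold of 0.32 on the log2 scale 5 were higher and 2 lower. The median of the shared members, -0.46, was -0.14 with Lag3 counted among them, and that of the T-cell members stayed within 1 robust SD of the differences (0.25). Of 126 list medians under the alternatives, 125 moved by less than that. The exception was the NK-cell list, at -0.46 with 32 added. Its summed level, 104% of that in CTXpre, was 61.1% without Cd7, an alternative chosen after seeing the data. No paired analysis was possible because each group has 1 array. For the same reason no replicate could be left out. The central 95% of differences among the 1450 chemosensory receptor probe sets, mostly at background, ran from -0.58 to 0.66, which limits what dim genes can show.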

Other observations

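Relatives of the 10 genes were read from family lists added after the members' values had been seen. Of 8 SLAM-family genes related to Cd244a, all above background, 0 reached 1.5-fold. Slamf1, a receptor of activated T cells, had levels of 7.51 in CTXpre/CD4post and 6.98 in CTXpre, and Slamf8, which is found on myeloid cells, 5.27 in CTXpre/CD4post and 5.72 in CTXpre. Of 3 other TIM genes related to Havcr2, Timd2 had levels of 4.50 in CTXpre/CD4post and 5.12 in CTXpre, a difference of -0.62. Havcr1, above background in CTXpre only, was at least 1.38-fold lower. Timd4 was above background on neither array. Of 7 further NTPDase genes related to Entpd1, Entpd8 was at least 1.5-fold lower (-0.67), Entpd5 differed by 0.25 and the other 5 had differences between -0.13 and 0.06. Timd2, Havcr1 and Entpd8 lay under the stricter background bound (99th percentile) on both arrays, 5.13 in CTXpre/CD4post and 5.26 in CTXpre. Over all probe sets above background, 3.35% were at least 1.5-fold lower. The TOX relatives Tox2, Tox3 and Tox4 differed by 0.07, -0.03 and -0.01.

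Among the B7 and nectin families, which supply ligands to PD-1, CTLA-4 and TIGIT, the genes past 1.5-fold were not ligands of the members. Icosl, the ligand of ICOS, had levels of 8.17 in CTXpre/CD4post and 8.80 in CTXpre, while Icos itself was 2.25-fold higher. Cadm1, an adhesion molecule of conventional dendritic cells that binds CRTAM on T cells, had levels of 6.46 in CTXpre/CD4post and 7.33 in CTXpre, and Crtam differed by -0.09. In the same array the conventional dendritic-cell markers had a median of -0.54 and the B-cell markers one of -0.30, and their part in the levels of Icosl and Cadm1 was not tested.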
